A study of Mus musculus with 8 samples.

Results

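The genes described here are 9 transcripts of myelin and of the mature oligodendrocyte, the glial cell that wraps axons of the brain in myelin: Mbp, Mog, Mag, Mobp, Cnp, Cldn11, Opalin, Ermn and Myrf. They were taken by name from the authors' deposited table, which lists 48404 genes, and all 9 are among the 19294 genes with a deposited p. RNA sequencing was done on microvessels from brains of C57BL6 mice of wild type genotype, with 4 libraries after tMCAO and 4 after sham surgery. In tMCAO, transient middle cerebral artery occlusion, the artery that feeds much of a hemisphere is blocked and then reopened. The sources used here give neither the duration of the block and the time of sampling nor the sex and age of the mice, nor do they say whether each library came from its own mouse.

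Oligodendrocytes extend sheets of membrane that spiral around an axon and are then compacted, and the resulting sheath speeds conduction and feeds the axon. The sheath has a compact part, held together by basic and transmembrane proteins, and channels of cytoplasm that run along its edges and its inner, axon-facing turn. Each cell arises from a precursor that leaves the cell cycle, passes through a newly formed stage and then switches on the myelin genes under a small set of transcription factors. Oligodendrocytes lie close to brain vessels but are not part of the vessel wall.

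Each gene carries 1 fold change and 1 p for the whole comparison, both computed by the authors, and levels in single libraries and their depth were not analysed here. Fold changes are given as log2 ratios of tMCAO over sham. The deposited header does not say which group is on top, and a positive ratio was taken to mean higher after tMCAO because markers of neutrophils and monocytes, which enter the injured brain, were strongly positive (11 of 13 tested markers called higher, median log2 ratio 2.23), so their direction is not a separate result. The standard error (SE) of each ratio was worked out from the ratio and its p before adjustment, and 95% intervals were built from that implied SE. Both are approximate and assume a normal scale, and the intervals are not adjusted for the number of genes tested.

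All 9 myelin genes had a log2 ratio below 0 after tMCAO in the authors' deposited table, and 5 of them, Mog, Opalin, Mag, Mbp and Cnp, fell at an adjusted p under 0.05. None was called higher. Of all tested genes in the authors' deposited table, 17.6% were called lower, 15.2% higher and 32.8% in either direction, and 50.1% had a value below 0. The median over the 9 genes was -0.66, and over all tested genes it was -0.0008. The largest fall, that of Mog, left 0.386 times the sham level. In a bulk preparation of vessels, less oligodendrocyte material relative to other cells and less RNA in each oligodendrocyte cannot be told apart.

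**Figure D1:**
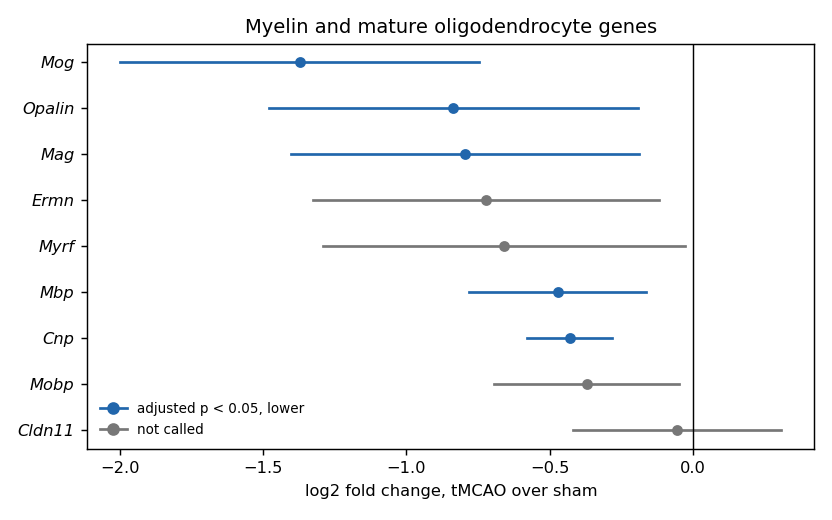
Log2 ratio of tMCAO over sham (x axis) for each of the 9 myelin and mature oligodendrocyte genes, with points at the deposited value and bars at the 95% interval built from the implied SE. All 9 points lie left of 0, from Mog at -1.37 to Cldn11 at -0.05, and the bar of Cldn11 is the one that crosses 0. The bars are not adjusted for the number of genes tested, so those of Ermn, Mobp and Myrf clear 0 although these genes were not called.

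Surface and axon-facing glycoproteins of the sheath had the 3 lowest values. Mog, a protein of the immunoglobulin family on the outermost face of central myelin and a target of antibodies in demyelinating disease, fell to 0.386 times sham in the authors' deposited table (log2 ratio -1.37, implied SE 0.32, adjusted p = 0.000228). Its 95% interval ran from -2.0 to -0.75, and 1.21% of tested genes had a lower value. Opalin, a sialylated transmembrane glycoprotein of mature oligodendrocytes, had a log2 ratio of -0.84 in the authors' deposited table (implied SE 0.33, adjusted p = 0.0363). Mag, a lectin that binds sialic acid and sits on the turn of myelin next to the axon, had one of -0.79 (implied SE 0.31, adjusted p = 0.0350) in the authors' deposited table. Opalin was thus at 0.560 and Mag at 0.577 times sham, with intervals of -1.48 to -0.19 and -1.40 to -0.19.

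Proteins of compact myelin and of its cytoplasmic channels had smaller values that were measured more precisely. Cnp, a cyclic nucleotide phosphodiesterase that keeps the cytoplasmic channels of myelin open, fell to 0.742 times sham and had the smallest p of the 9 in the authors' deposited table (log2 ratio -0.43, implied SE 0.076, adjusted p = 8.03e-07). Mbp, the basic protein that binds the inner faces of the membrane together, fell to 0.721 times sham in the authors' deposited table (log2 ratio -0.47, implied SE 0.16, adjusted p = 0.0122). Mobp, a small basic protein of the same compact layers, had a log2 ratio of -0.37 (implied SE 0.16) in the authors' deposited table and did not pass, with an adjusted p of 0.0677. The interval of Mobp, from -0.69 to -0.05, overlapped that of Mbp, from -0.78 to -0.16, over most of its length.

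The other 3 genes, like Mobp, were not called. Ermn, an actin-binding protein of mature oligodendrocytes, had a log2 ratio of -0.72 (implied SE 0.31, adjusted p = 0.0561) in the authors' deposited table, close to that of Mag. Myrf, the membrane-bound transcription factor that cuts itself free and turns on myelin genes, had one of -0.66 (implied SE 0.32, adjusted p = 0.102) in the authors' deposited table. Cldn11, the claudin whose strands form the tight junctions between turns of myelin, stood apart with a log2 ratio of -0.05 (implied SE 0.19, adjusted p = 0.855) in the authors' deposited table. Its interval, from -0.42 to 0.31, holds the value of Mobp but of none of the other 7 genes, and 45.4% of tested genes had a lower value.

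Ordered by fold change, neighbours among the 9 genes had overlapping intervals throughout. Of the 36 pairs, 3 had intervals that did not overlap, namely Mog with Cnp, Mog with Mobp and Mog with Cldn11. The differences between genes were not tested, since all 9 values come from the same libraries and the values per library were not analysed here. The 5 genes with the lowest ratios had implied SEs of 0.31 to 0.33, against 0.076 to 0.19 for the other 4 and a median of 0.22 over all tested genes. Adjusted p therefore did not follow the size of the change, since Cnp had the smallest p with one of the smallest changes.

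**Figure D2:**
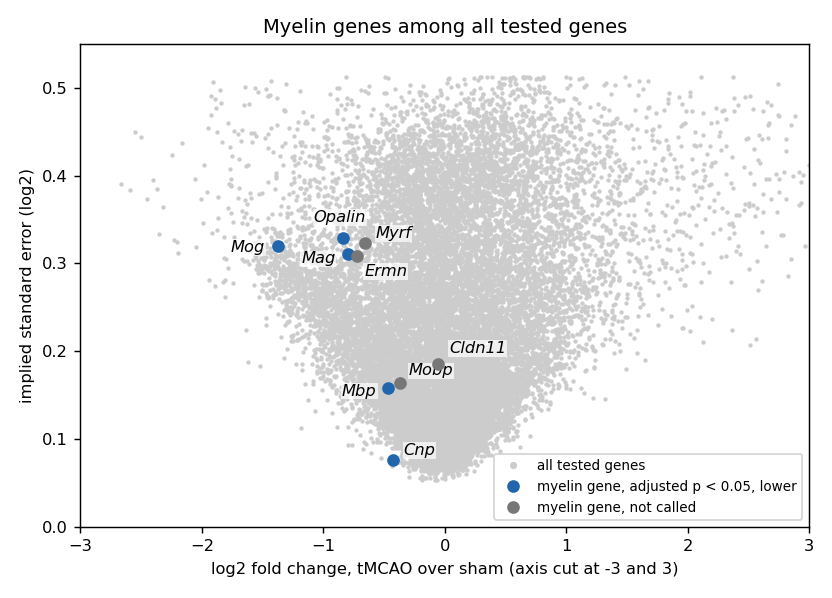
Implied SE (y axis, log2 units) against log2 ratio of tMCAO over sham (x axis, drawn from -3 to 3) for all tested genes in grey, with the 9 myelin genes marked by whether they were called. Mog, Opalin, Mag, Ermn and Myrf lie together at an error of 0.31 to 0.33, and Mbp, Mobp, Cldn11 and Cnp lie at smaller errors with values nearer 0.

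Which of the 9 were called depended on the threshold. At an adjusted p under 0.01, and likewise when the deposited p was read as unadjusted and adjusted again, only Mog and Cnp were called lower. When a log2 ratio of at least 0.5 in size was also asked for, Mog, Opalin and Mag were. Ribosomal protein genes had a median log2 ratio of 0.90. Relative to them all 9 myelin genes were called lower, but so were 15047 of all 19294 tested genes. Under this centring a gene with a ratio between 0 and 0.90 changes sign.

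In the GENCODE M21 annotation of the mouse build GRCm38, the 9 genes lie on 8 chromosomes, Opalin and Myrf both on chromosome 19. Mbp, by far the longest, spans chromosome 18 from 82475146 to 82585637, and its value pools 16 listed transcripts. Mog spans chromosome 17 from 37010743 to 37023398 with 2 listed transcripts, and Mag chromosome 7 from 30899176 to 30914873 with 8. Opalin spans chromosome 19 from 41061710 to 41077113 and Myrf the same chromosome from 10208272 to 10240748. Mobp spans chromosome 9 from 120149707 to 120181484, and Cldn11 chromosome 3 from 31149920 to 31164324. Mobp shares 79 exonic bases, or 1.15%, with Gm38642 on the same strand, which was not analysed here. Cnp spans chromosome 11 from 100574904 to 100591729. It overlaps Dnajc7, a chaperone gene on the opposite strand, over 154 exonic bases, 4.23% of the exonic bases of Cnp. The sources used here do not say whether reads were counted by strand, so reads in that stretch cannot be assigned with certainty; Dnajc7 had a log2 ratio of 0.08 (adjusted p = 0.412), per the authors' deposited table. Ermn, on chromosome 2 from 58045113 to 58052864, shares 237 exonic bases, or 6.52%, with Galnt5 on the opposite strand, which had a log2 ratio of 0.28 and no deposited p in the authors' deposited table.

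Of 21 further sheath genes tested, 7 fell (33.3%, against 17.6% of all tested genes), with a median log2 ratio of -0.51. Another 3 rose (14.3%, against 15.2%), a share near that of all genes. Pllp, the raft protein plasmolipin, had a log2 ratio of -0.95 (adjusted p = 6.80e-07), Cmtm5 one of -1.05 (adjusted p = 1.39e-06) and Gpr37, a receptor that restrains myelination, one of -1.16 (adjusted p = 7.53e-05), per the authors' deposited table. Tspan2, a tetraspanin of oligodendrocytes, had a log2 ratio of -0.74 (adjusted p = 9.09e-05), per the authors' deposited table. The genes that rose included a pair of tetraspanins that many cell types make, Cd82 with a log2 ratio of 1.04 and Cd9 with 1.01 in the authors' deposited table. The third was Cryab, a small heat shock protein, at 0.89 in the authors' deposited table (below 0 relative to ribosomal protein genes). Cryab was picked out with its value known. Which cells carried the genes that fell or the genes that rose was not tested, for this list or for those below.

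Genes of myelin lipid synthesis fell in 6 of 19 tested members (31.6%, against 17.6% of all tested genes) and rose in 2 (10.5%, against 15.2%). Their median log2 ratio was -0.04. Fa2h, which hydroxylates the fatty acids of myelin lipids, had a log2 ratio of -1.49 (adjusted p = 3.36e-05), and Ugt8a, the ceramide galactosyltransferase that makes galactocerebroside, one of -1.19 (adjusted p = 0.00111), per the authors' deposited table. Acss2, which makes acetyl-CoA from acetate, had one of -0.27, and Scd2, a desaturase of fatty acids, one of -0.40 in the authors' deposited table. Those that rose were Elovl1, an elongase of very long fatty acids, at 0.73, and Hmgcs1, an early enzyme of cholesterol synthesis, at 0.47 in the authors' deposited table; both enzymes work in many cell types, and both values are below 0 relative to ribosomal protein genes.

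Of 29 tested genes of mature oligodendrocytes outside the sheath, 7 fell (24.1%, against 17.6% of all tested genes) and 5 rose (17.2%, against 15.2%), both near the share of all genes, with a median log2 ratio of -0.07. Relative to ribosomal protein genes 21 were called lower and 1 higher, under a centring in which 15047 of all 19294 tested genes were called lower. Grm3, a metabotropic glutamate receptor, had a log2 ratio of -1.17 and Hhip, a binding protein of hedgehog ligands, one of -0.89 in the authors' deposited table. Adamts4, a protease of matrix proteoglycans, rose by 2.73 on the log2 scale and Mboat1, an acyltransferase of phospholipids, by 0.89 in the authors' deposited table, though relative to ribosomal protein genes Mboat1 is below 0. Klk6, a secreted serine protease of mature oligodendrocytes, rose by 1.23 on the log2 scale (implied SE 0.41, adjusted p = 0.0116) in the authors' deposited table, the opposite direction to the 9 myelin genes.

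Transcription regulators of the lineage, a list that also holds chromatin remodellers, had a median log2 ratio of -0.11. They fell in 10 of 26 tested members (38.5%, against 17.6% of all tested genes) and rose in 3 (11.5%, against 15.2%). Sox10, the factor that marks all stages of the lineage and works with Myrf, fell to 0.549 times sham in the authors' deposited table (log2 ratio -0.87, implied SE 0.30, adjusted p = 0.0160). Olig1 and Olig2, basic helix-loop-helix factors of the lineage, had log2 ratios of -1.04 (adjusted p = 0.00320) and -1.05 (adjusted p = 0.0220), per the authors' deposited table. Nkx6-2, a homeodomain factor of mature oligodendrocytes, had one of -1.07 (adjusted p = 0.00250), Sox8 one of -1.52 (adjusted p = 3.98e-14), Zfp365 one of -1.05 and Hes5, a repressor downstream of Notch, one of -1.89 in the authors' deposited table. Chd7, a chromatin remodeller that many cell types use, rose by 1.01 on the log2 scale and Smarca4, another remodeller, by 0.28 in the authors' deposited table; Yy1, picked out with its value known, rose by 0.22, and both Smarca4 and Yy1 are below 0 relative to ribosomal protein genes.

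**Figure D3:**
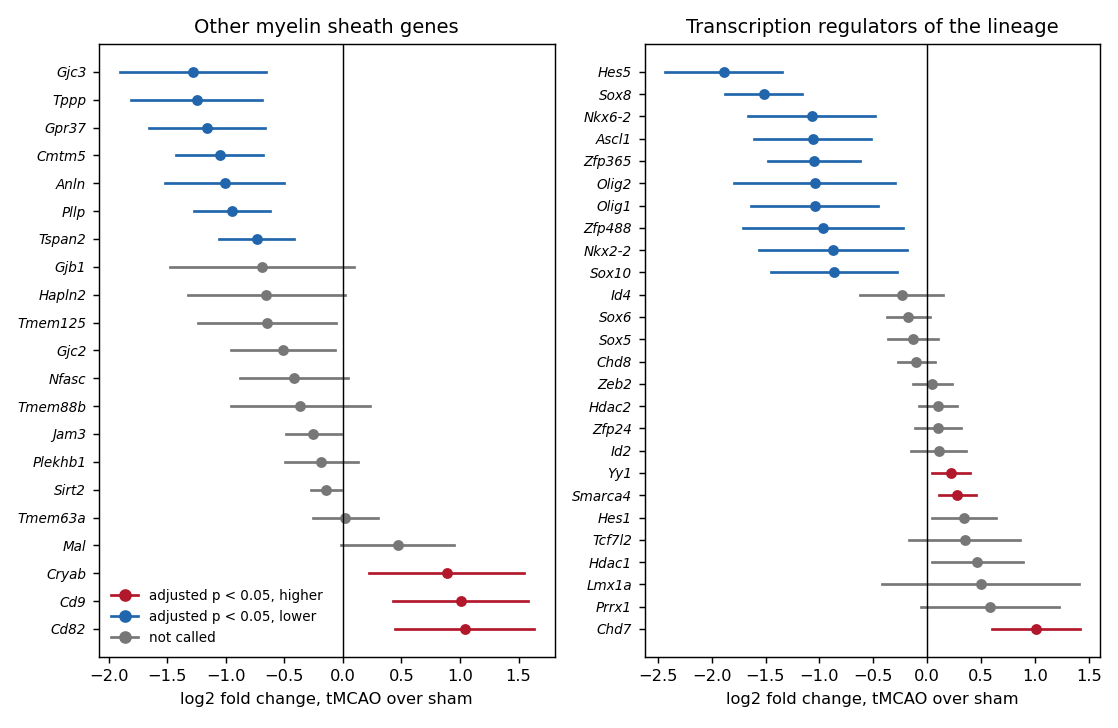
Log2 ratio of tMCAO over sham (x axis) with 95% intervals from the implied SE for 21 other myelin sheath genes (left) and 26 transcription regulators of the lineage (right). In the left panel Gjc3 at -1.28 is lowest and Cd82 at 1.04 highest; in the right panel Hes5 at -1.89 is lowest and Chd7 at 1.01 highest.

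The promoters of the 9 genes were read for motifs of these factors, because Myrf, Sox10 and the Olig factors are known regulators of myelin genes. RefSeq windows of build GRCm38.p6, from 250 bases before to 50 after a start site, were matched by symbol for 7 of the 9 genes, with 9 windows in all; Mbp and Myrf were not searched. CTGGNAC, the pattern used here for Myrf, in which N is any base, was searched on either strand. Whether Myrf binds each form of it was not tested. A match was found in windows of 4 of the 7, Mog, Mag, Cnp and Opalin. Of the 9 windows 5 held a match, against 19.3% of 32851 windows of all genes. Windows of Mobp, Ermn and Cldn11 held none. In the authors' deposited table the genes with a match had log2 ratios of -1.37 (Mog), -0.84 (Opalin), -0.79 (Mag) and -0.43 (Cnp). All 4 were called lower. Those without a match were at -0.72 (Ermn), -0.37 (Mobp) and -0.05 (Cldn11), and none was called. Whether a match goes with the change was not tested. The E-box CAGNTG, read by Olig factors and many others, was found for Cnp, Mag and Opalin, in 3 of the 9 windows, against 51.4% of all windows. AACAAT, a motif of Sox10 and its relatives, and the TATA box TATAAA were found for none of the 7, against 10.7% and 13.6% of all windows. No match of one motif overlapped another in the 9 windows, though 2 of the 3 windows of Mag overlap and share the same matches. These matches are a description of letters and not of bound sites.

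The stretches before the start sites are shown for the gene with the lowest value, Mog, for Mag and Cnp, which carry 2 matches each, and for Cldn11, which was nearest 0 and carries none. They are written 5′ to 3′ on the gene's strand with CTGGNAC, or its reverse complement GTNCCAG, in capitals. Mog lies on the minus strand (chr17:37023399-37023648), Mag on the minus strand (chr7:30914923-30915172), Cnp on the plus strand (chr11:100574689-100574903) and Cldn11 on the plus strand (chr3:31149670-31149919). The first base of the match is at -83 from the RefSeq start in Mog, at -100 and -9 in Mag and at -243 and -81 in Cnp; the match of Opalin, at 37 bases past its start, is not shown.
Mog: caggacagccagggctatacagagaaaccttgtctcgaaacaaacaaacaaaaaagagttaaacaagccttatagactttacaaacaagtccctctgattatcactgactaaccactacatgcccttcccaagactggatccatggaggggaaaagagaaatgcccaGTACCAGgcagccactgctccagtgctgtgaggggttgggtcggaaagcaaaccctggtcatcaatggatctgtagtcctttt
Mag: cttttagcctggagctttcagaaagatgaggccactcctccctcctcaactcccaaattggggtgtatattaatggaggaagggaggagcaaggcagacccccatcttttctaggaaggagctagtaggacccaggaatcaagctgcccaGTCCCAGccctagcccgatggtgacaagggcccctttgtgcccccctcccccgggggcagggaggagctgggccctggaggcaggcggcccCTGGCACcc
Cnp: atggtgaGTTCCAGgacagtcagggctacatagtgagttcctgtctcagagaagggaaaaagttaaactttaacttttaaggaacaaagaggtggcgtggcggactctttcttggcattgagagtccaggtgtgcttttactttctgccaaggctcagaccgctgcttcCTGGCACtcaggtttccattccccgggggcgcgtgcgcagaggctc
Cldn11: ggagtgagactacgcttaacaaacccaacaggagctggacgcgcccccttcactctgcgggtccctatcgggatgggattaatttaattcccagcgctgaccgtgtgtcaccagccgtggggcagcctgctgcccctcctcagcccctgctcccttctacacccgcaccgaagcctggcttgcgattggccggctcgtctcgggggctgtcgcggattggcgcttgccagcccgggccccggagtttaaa

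Precursor genes fell in 13 of 20 tested members (65%, against 17.6% of all tested genes) and none rose (against 15.2%), with a median log2 ratio of -0.74. Among them Susd5 had a log2 ratio of -1.18 (adjusted p = 1.47e-22), Ptprz1, a receptor phosphatase of the precursor surface, one of -0.67 (adjusted p = 9.36e-10) and C1ql1, a secreted protein of the complement C1q type, one of -1.46 (adjusted p = 1.09e-06), per the authors' deposited table. Cspg4, the NG2 proteoglycan of precursors and of pericytes, had a log2 ratio of -0.42 (adjusted p = 0.00751), whereas Pdgfra, a receptor of precursors and of fibroblasts, had one of 0.40 and was not called (adjusted p = 0.186) in the authors' deposited table. Genes of newly formed oligodendrocytes fell in 4 and rose in 4 of 19, with a median of 0.34. Each share was 21.1%, against 17.6% lower and 15.2% higher among all tested genes. Relative to ribosomal protein genes the median of the newly formed genes is below 0, with 11 of 19 called lower and none higher. Under that centring 15047 of all 19294 tested genes were called lower and 330 higher. Gpr17, a receptor of the step between precursor and myelinating cell that is in both lists, fell to 0.241 times sham in the authors' deposited table (log2 ratio -2.05, implied SE 0.40, adjusted p = 7.23e-06). The sialidase gene Neu4, also in both, had a log2 ratio of -1.65 and the factor gene Mycl one of -0.995, while the small GTPase gene Rras2 rose by 1.32 on the log2 scale in the authors' deposited table. Bcas1, a marker of the newly formed cell, had a log2 ratio of 0.28 and was not called (adjusted p = 0.239) in the authors' deposited table.

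Axonal and glial genes of the node and paranode, where myelin meets bare axon, had a median log2 ratio of -0.95. They fell in 17 of 22 tested members (77.3%, against 17.6% of all tested genes) and none rose (against 15.2%). The sodium channel gene Scn1a had a log2 ratio of -1.40, Cntnap1, which anchors the paranodal loops on the axon, one of -0.95, Cntnap2 one of -1.32 and the potassium channel gene Kcna2 one of -1.27 in the authors' deposited table. Most of these genes are made by neurons. The list of ligands and receptors of oligodendrocyte growth and inhibition fell in 12 of 30 (40%, against 17.6% of all tested genes), with a median of -0.22. It rose in 5 (16.7%, against 15.2%), a share near that of all genes. Mag is a ligand of the Nogo receptor, which limits axon regrowth, and some other genes of that axis were also lower: the receptor gene Rtn4r had a log2 ratio of -1.44 (adjusted p = 1.88e-05) and the ligand gene Omg one of -1.55 (adjusted p = 4.88e-06), per the authors' deposited table. Their co-receptor gene Lingo1, picked out with its value known, had one of -1.15, and the Nogo gene Rtn4, picked out likewise, one of -0.38 without a call (adjusted p = 0.115), per the authors' deposited table. Other receptor genes of the list, also picked out, went both ways. Rtn4rl1 at -0.88 and Rtn4rl2 at -0.86 were called lower in the authors' deposited table. Ngfr at 0.58 (adjusted p = 0.137) and Tnfrsf19 at -0.18 (adjusted p = 0.651) were not called, per the authors' deposited table. Lif, a cytokine gene, rose by 5.14 and Fgf2, a growth factor gene, by 1.48 on the log2 scale in the authors' deposited table.

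Markers of other cell types also changed in the same comparison, in both directions. Neuron markers fell in 20 of 20 (100%, against 17.6% of all tested genes), with log2 ratios of -1.74 to -0.52 (median -1.10). Among them the neurofilament gene Nefl had a log2 ratio of -1.31 and the synaptic vesicle gene Syp one of -1.52 in the authors' deposited table. Microglia markers fell in 7 of 15 (46.7%, against 17.6% of all tested genes) and rose in 1 (6.7%, against 15.2%), with a median of -0.60. Siglech had a log2 ratio of -2.46 and P2ry12 one of -1.74, while Sparc, which vessels also make, rose by 1.22 on the log2 scale in the authors' deposited table. Endothelial markers rose in 10 of 16 (62.5%, against 15.2% of all tested genes) and none fell (against 17.6%), with a median of 0.73. That median is below 0 relative to ribosomal protein genes. Under that centring 4 of 16 were called lower and none higher, against 15047 lower and 330 higher of all 19294 tested genes. Emcn rose by 1.14 on the log2 scale and Eng by 1.17 in the authors' deposited table. Astrocyte markers had a median of -0.10, with 3 of 16 lower (18.75%, against 17.6% of all tested genes) and 1 higher (6.25%, against 15.2%). The astrocyte marker that rose was the intermediate filament gene Gfap, by 1.87 on the log2 scale in the authors' deposited table. The part of these other cell types in the values of the myelin genes was not tested.

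**Figure D4:**
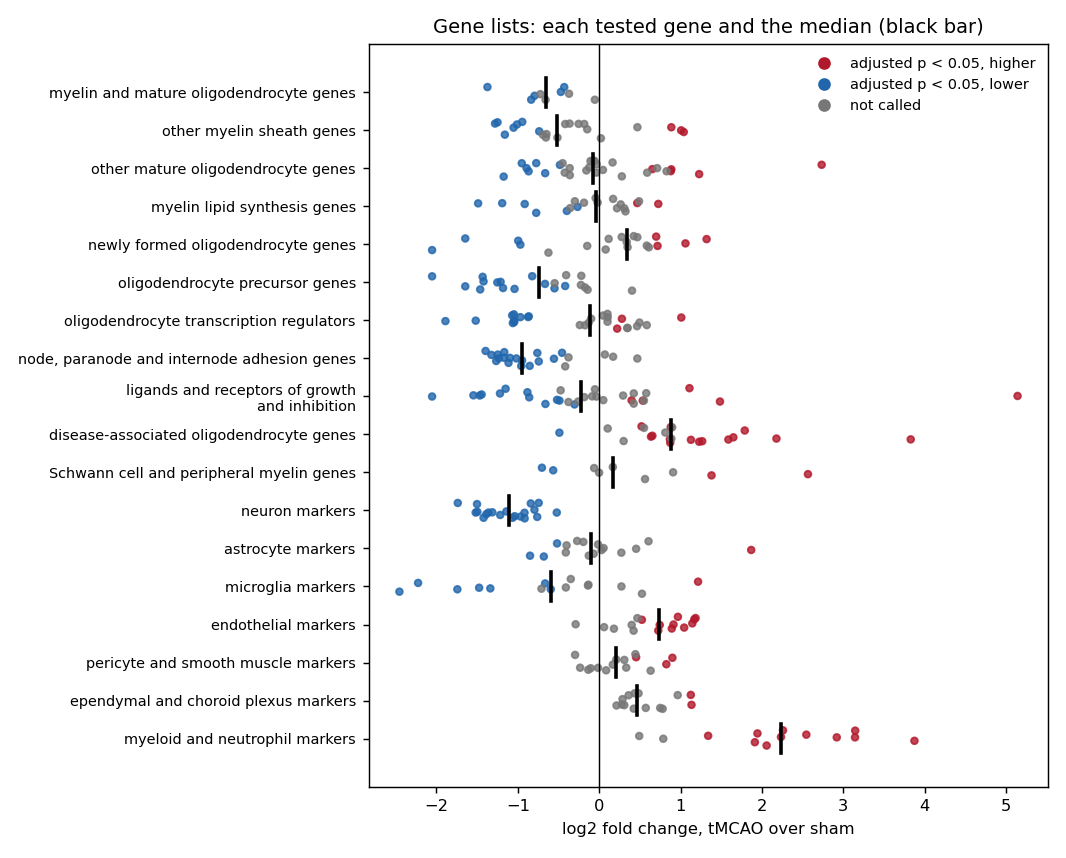
Log2 ratio of tMCAO over sham (x axis) for every tested gene of each list (rows), coloured by whether it was called, with a black bar at the list's median. The 9 myelin genes (top row, median -0.66) have a median between those of the neuron markers (-1.10) and the astrocyte markers (-0.10), and the medians of the endothelial markers (0.73) and myeloid markers (2.23) lie right of 0.

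Most genes known to rise in oligodendrocytes of diseased or injured brain were higher after tMCAO, unlike the 9 myelin genes. Of 21 tested members, 14 rose (66.7%, against 15.2% of all tested genes) and 1 fell (4.8%, against 17.6%), with a median log2 ratio of 0.88. That median is just below 0 relative to ribosomal protein genes. Under that centring 4 were called higher and 3 lower, against 330 higher and 15047 lower of all 19294 tested genes. Il33 and Trf, picked out with their values known, and Klk6 rose here and among the mature oligodendrocyte genes, so these rises are counted in both. Serpina3n, a protease inhibitor also made by reactive astrocytes, rose by 3.83 on the log2 scale (adjusted p = 9.97e-77), the interferon-response gene Ifi27l2a by 2.18 (adjusted p = 1.09e-06) and Cdkn1a, an inhibitor of cell division, by 1.59 (adjusted p = 5.59e-06) in the authors' deposited table. Plvap, placed in that list but best known from fenestrated endothelium, rose by 1.79 on the log2 scale in the authors' deposited table. Plin4, a coat protein of lipid droplets, was the member that fell and had a log2 ratio of -0.49 in the authors' deposited table. Most genes of the list are made by several cell types of the vessel and the brain, and which cells carried them was not tested.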

How the data were processed

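RNA sequencing libraries from brain microvessels (4 tMCAO, 4 sham, grouped by title) were made from total RNA depleted of ribosomal RNA, per the labels' protocols. DESeq2, HTSeq, STAR, cutadapt and bcl2fastq 2.19 are listed in the submitters' processing notes, as is build GRCm38 (mm10), without roles or options. The authors deposited a log2 fold change for 31616 of 48404 genes and a p-value for 19294, per the file headers. The score (headed Z-score) that the authors deposited for 18393 genes is a straight-line rescaling of the log2 fold change (18393 within 1e-06) and was not used further. In the 3 sheets, 0 columns are headed by a library or group, so replicates could not be compared or left out here, and depth is unknown. No source says that libraries came from separate animals, so the p-values may reflect technical spread alone. The column of p-values that the authors deposited was taken to be already adjusted (Benjamini-Hochberg), since 3214 of its values are shared by genes that differ in fold change.

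An unadjusted p was recovered as adjusted p times last rank over the number of tests, and the log2 fold change over its normal deviate gave the implied SE (median 0.22, range 0.053 to 0.51). The arithmetic was tested on simulated data. Since 8 log2 fold changes of size 0.143 to 0.169 are each shared by at least 200 genes, all without a p, the deposited values may be shrunken towards 0, which would make folds and errors too small. Python 3.11.15, pandas 2.3.3 and scipy 1.17.1 were used. Calls are at an adjusted p under 0.05 over all tested genes. The 9 genes and 17 other lists were chosen with earlier results of these data known; the lists were described by counts and medians. Of each list, genes named are the 4 with the smallest adjusted p and up to 2 called against its majority, of which most are given, plus Sox10, Olig1, Olig2, Nkx6-2, Ugt8a, Pdgfra, Cspg4, Gpr17, Bcas1 and Klk6; 1 gene of the rule is not reported here and was left out of the lists. Gene positions are from GENCODE M21, in which 48044 of the listed IDs were found, and promoters from RefSeq. Alternatives were other centrings, another reading of the p-value, a stricter threshold and a minimum size.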

Additional observations from a re-analysis of the deposited data

How the results depend on the processing

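No paired analysis was possible because the libraries of the groups share no replicate number and values per library were not analysed here; for the same reason leaving out each replicate was not run. Centred on the 4824 best measured genes, whose median log2 ratio was -0.01, the 9 myelin genes kept their calls, as did 82 of 82 other named genes. Taking the first rank of a shared p left the implied SE of the 9 the same to 3 significant digits, and no member lacked a p, so the median stayed at -0.66.

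The number of myelin genes called lower was 5, but 2 with the deposited p read as unadjusted, 2 at an adjusted p under 0.01 and 3 when a log2 ratio of at least 0.5 in size was also asked for; none was called higher under any setting tried. With the p read as unadjusted, and likewise at 0.01, calls numbered 5 of newly formed oligodendrocyte genes, 8 of transcription regulators, 2 of astrocyte markers and 0 of ependymal markers (main counts 8, 13, 4 and 2). With the minimum size, 5 lipid genes were called in place of 8.

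Centring on 79 ribosomal protein genes lowers every log2 ratio by 0.90, and 15047 genes were then called lower and 330 higher. Under it 9 of the 9 myelin genes were called lower (median -1.56), and calls numbered 17 for other sheath, 17 for lipid, 20 for precursor, 22 for transcription regulator, 11 for newly formed oligodendrocyte, 13 for microglia, 4 for endothelial and 8 for pericyte and smooth muscle genes, all of them lower. They numbered 22 for other mature oligodendrocyte (21 lower, 1 higher), 13 for astrocyte (12 lower, 1 higher), 7 for disease-associated (3 lower, 4 higher) and 0 for ependymal genes. Of the genes of all lists called higher, 23 are below 0 under this centring. Among the genes named by rule, those that changed sign with a call in either setting were Mboat1 (-0.017), Elovl1 (-0.18), Hmgcs1 (-0.44), Smarca4 (-0.62), Robo4 (-0.011), Abcc9 (-0.45), Kcnj8 (-0.079), Des (-0.0041), Pdgfra (-0.50) and Bcas1 (-0.63). Of the 79 ribosomal protein genes 73 were themselves called higher, so this setting moves all genes down. Sequencing depth is unknown, and precision rests on the implied SEs.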

Other observations

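Genes of peripheral myelin and Schwann cells, which wrap axons outside the brain, had few calls, at shares not far from those of all tested genes. Of 12 genes 9 were tested, with a median log2 ratio of 0.17. Of these, 2 rose (22.2%, against 15.2% of all tested genes) and 2 fell (22.2%, against 17.6%). Gldn, a matrix protein that gathers sodium channels at peripheral nodes, rose by 2.57 on the log2 scale (implied SE 0.21, adjusted p = 5.75e-30) in the authors' deposited table. Prx, a scaffold protein of peripheral myelin that some endothelial cells also make, rose by 1.38 on the log2 scale (adjusted p = 0.00110), while Drp2, which binds it, had a log2 ratio of -0.70 (adjusted p = 2.76e-05) and the cadherin gene Cdh19 one of -0.57 (adjusted p = 0.00342), per the authors' deposited table.

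Of the vessel and ventricle lists, pericyte and smooth muscle markers rose in 3 of 15 (20.0%, against 15.2% of all tested genes) and none fell (median log2 ratio 0.21). Among those that rose were the channel subunit genes Abcc9 at 0.45 and Kcnj8 at 0.83 in the authors' deposited table. Markers of ependyma and choroid plexus were called higher in 2 of 14 (14.3%, against 15.2% of all tested genes) and lower in none (median 0.46), with the cilia genes Foxj1 at 1.13 and Tekt1 at 1.13 in the authors' deposited table. Both medians, and the values of Abcc9 and Kcnj8, are below 0 relative to ribosomal protein genes.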
